A study of Mus musculus with 2 samples.

Results

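The nuclei described here were upper-layer excitatory neurons of the embryonic mouse neocortex that carried a combination of genes around Cntnap5c, Tshr and Ntf3. They were chosen from single-nucleus RNA-seq counts by a gate. A nucleus entered it with 500 or more genes detected, with 1 or more UMI of at least 3 of 7 genes (Cntnap5c, Tshr, Ntf3, Mkx, Dkk2, Cbln2 and Thsd4), and with 0 UMI of Inhba, Fst, Hs3st4, Gad2 and Slc1a3. A UMI is a tag that marks 1 captured RNA molecule. The gate held 259 of 17198 nuclei. Of these, 174 came from the library labelled MEN1-NCKO, which had 10731 nuclei, and 85 came from the library labelled MEN1-F/F, which had 6467.

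The study's title links menin, which Men1 encodes, with EphA4 in cortical neurons born late. Cortical tissue of embryos was dissected and frozen, nuclei were isolated, and 1 library was made for each of the genotypes MEN1-NCKO and MEN1-F/F. Both labels give a Men1 genotype, and neither library is labelled wild type. The sources used here give no embryonic age, number of embryos per library, Cre driver or targeted part of Men1. As each label has 1 library, replicate spread cannot be estimated and no test was run. Every difference is between these 2 libraries, and intervals cover counting error alone.

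Upper-layer neurons are the late-born excitatory neurons of the cortical plate. They settle above the earlier deep-layer neurons after migrating along radial glia, and most later send axons within the cortex. Cux1, Cux2 and the Pou3f factors mark and shape the upper layers, and Rorb is known from layer 4. Of the genes in the gate, Tshr encodes the thyrotropin receptor, Ntf3 the growth factor neurotrophin-3, Mkx a homeobox factor, Dkk2 a secreted Wnt modulator and Cbln2 a secreted synaptic organizer. Cntnap5c encodes a contactin-associated membrane protein.

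Gate genes were used to choose the nuclei, so their levels are a description. Levels are given in CPM, a gene's UMIs relative to the total of the same nuclei and library. Cntnap5c was at 1053 CPM in gated NCKO nuclei and 1133 CPM in gated F/F nuclei, and Tshr was at 228 and 197 CPM. Ntf3 was at 161 CPM in NCKO and 287 CPM in F/F, Mkx at 207 and 246 CPM, and Thsd4 at 211 and 277 CPM. Dkk2 was at 142 CPM in NCKO and 86.0 CPM in F/F, and Cbln2 at 123 and 51.2 CPM. Ntf3 was higher in F/F, and Dkk2 and Cbln2 in NCKO, but the gate reads these genes, so this is not a finding. A UMI of Dkk2 or Cbln2 was found in 116 gated NCKO nuclei, 66.7% (exact Clopper-Pearson 95% interval 59.1 to 73.6), and in 33 gated F/F nuclei, 38.8% (28.4 to 50.01). Tshr or Ntf3 was found in 129 gated NCKO nuclei, 74.1%, and 70 gated F/F nuclei, 82.4%. A different mix of nuclei and a different level of Dkk2 and Cbln2 in the same kind of nucleus cannot be told apart from these shares, and results are given below also within each Dkk2 and Cbln2 class.

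Just inside the threshold, with exactly 3 gate genes, lay 94 NCKO and 56 F/F nuclei. Rorb was at 741 CPM in these NCKO nuclei and 724 CPM in these F/F nuclei, and Foxp2 at 35.8 and 30.7 CPM. Just outside, with exactly 2 gate genes, lay 223 NCKO and 142 F/F nuclei, with Rorb at 429 and 341 CPM and Foxp2, a layer 6 marker, at 103 and 73.1 CPM. A further 350 NCKO and 148 F/F nuclei had 3 or more gate genes but also an excluded gene. Their median depth was 7904 UMIs in NCKO and 7887 UMIs in F/F, against 4823.5 UMIs in gated NCKO nuclei and 4766 UMIs in gated F/F nuclei, so these excluded nuclei were deeper than the gated ones.

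The gated nuclei made up 1.62% of NCKO nuclei (1.39 to 1.88) and 1.31% of F/F nuclei (1.05 to 1.62), a ratio of 1.23 with an interval of 0.946 to 1.62. The difference in share was not detectable at this number of nuclei. They held 974392 UMIs in NCKO and 488166 UMIs in F/F, so 1 UMI was worth 1.03 CPM in NCKO and 2.05 CPM in F/F. Median genes per nucleus were 2136.5 in NCKO and 2200 in F/F. Mitochondrial UMIs were 0.224% of all UMIs in gated NCKO nuclei and 0.155% in gated F/F nuclei. The libraries had 15 barcodes in common, of which 0 were gated. A high doublet score was found for 17 gated NCKO nuclei and 1 gated F/F nucleus. The share of barcodes marked as high was set in advance and rose with the number of barcodes in a library. Over the whole libraries, 924 of 10750 NCKO barcodes and 336 of 6477 F/F barcodes were marked. The gated counts therefore cannot be compared directly between libraries, and their difference was not tested. Red blood cell genes summed to 92.4 CPM in gated NCKO nuclei and 55.3 CPM in gated F/F nuclei, against 113 and 90.8 CPM in all other nuclei.

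Most but not all cell type markers went with the label. Of 12 upper-layer markers, 8 were above the other nuclei in NCKO and 9 in F/F, and of 6 excitatory markers 4 and 5 were. Slc17a6, an excitatory marker, was at 16.4 CPM against 37.4 CPM in NCKO and 84.0 CPM against 60.2 CPM in F/F. Rorb was at 831 CPM in gated NCKO nuclei against 284 CPM in all other NCKO nuclei, and at 742 CPM in gated F/F nuclei against 377 CPM in the others. The 6 layer 6 markers summed to 278 CPM against 1852 CPM in NCKO and 490 CPM against 2128 CPM in F/F. Foxp2 was at 35.9 CPM against 562 CPM in NCKO and 36.9 CPM against 525 CPM in F/F, and Tle4 at 16.4 CPM against 404 CPM and 20.5 CPM against 414 CPM. Most of what remained was Nfia, at 147 CPM against 397 CPM in NCKO and 309 CPM against 644 CPM in F/F. Tbr1, a T-box factor of early-born neurons, was low everywhere, at 20.5 CPM against 27.9 CPM in NCKO and 30.7 CPM against 25.9 CPM in F/F. Cux1 and Cux2 were no guide to the gate: Cux1 was at 203 CPM against 268 CPM in NCKO and 402 CPM against 420 CPM in F/F. Lhx2 was below the other nuclei, at 31.8 CPM against 43.2 CPM in NCKO and 26.6 CPM against 64.7 CPM in F/F. Pou3f3 was at 34.9 CPM against 48.6 CPM in NCKO and 79.9 CPM against 78.8 CPM in F/F.

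**Figure D1:**
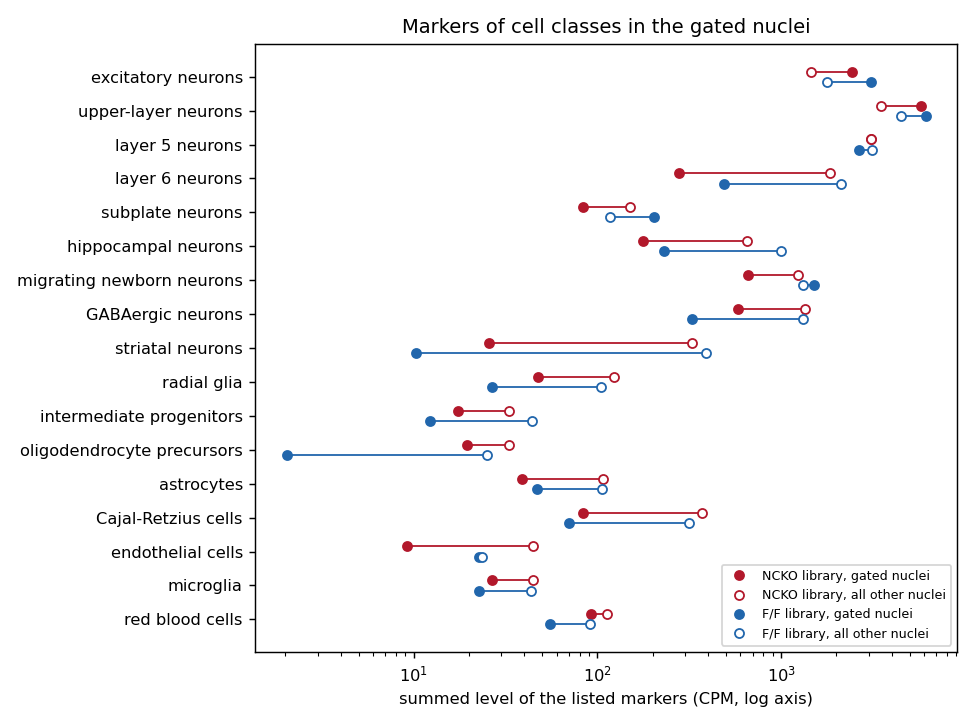
Summed level of each marker list (CPM, log axis) in gated nuclei (filled circles) and all other nuclei (open circles) of the NCKO library (red) and the F/F library (blue). Layer 6 markers summed to 278 CPM in gated NCKO and 490 CPM in gated F/F nuclei, against 1852 and 2128 CPM in the other nuclei of those libraries.

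Markers of most other classes were below the level of all other nuclei, with exceptions. The 6 layer 5 markers summed to 3066 CPM in gated NCKO nuclei against 3078 CPM in the other NCKO nuclei, and to 2651 CPM in gated F/F nuclei against 3111 CPM in the other F/F nuclei. Of these, Ldb2, a cofactor of LIM-domain factors, was above the others, at 1689 CPM against 929 CPM in NCKO and 1225 CPM against 887 CPM in F/F, and Sox5 was at 1244 CPM against 1660 CPM and 1305 CPM against 1758 CPM. The 9 GABAergic markers summed to 579 CPM in gated NCKO nuclei and 326 CPM in gated F/F nuclei, which is 0.431 and 0.247 of the level in all other nuclei. Almost all of this was Adarb2, at 542 CPM in NCKO and 305 CPM in F/F (log2 ratio of NCKO over F/F 0.82, and -1.63 without nuclei holding Gad1, Eomes or Reln), while Gad1, the GABA-synthesizing enzyme, was at 10.3 and 6.15 CPM. The migrating newborn neuron list summed to 663 CPM in NCKO and 1514 CPM in F/F, mostly through Unc5d, which is 0.535 and 1.15 times the level of the other nuclei. Subplate markers summed to 83.1 CPM in NCKO and 203 CPM in F/F, 0.554 and 1.74 times the level of the other nuclei, with Inpp4b at 54.4 and 127 CPM and Nr4a2 at 26.7 and 67.6 CPM. Of 6 Cajal-Retzius markers, 5 were at 0 in gated NCKO nuclei and 4 in gated F/F nuclei, and striatal markers summed to 25.7 and 10.2 CPM. Without nuclei that held a UMI of Gad1, Eomes or Reln, and without nuclei of high doublet score, the ratio of each gene named was computed again, and some of these values are given beside the gene. The part of the subplate, layer 5 and newborn neuron markers in the differences between libraries was not tested.

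Beyond the gate genes, the gated nuclei had a common set of leading genes in both libraries. These were ranked by the lower of the 2 libraries' ratios to all other nuclei, and gate and ranking read the same nuclei, so this is a description. Gm20319, Glis3 and Il1rap stood first. Gm20319 and Il1rap overlap on opposite strands of chromosome 16, and their UMIs cannot be told apart without strand. Il1rap, the interleukin-1 receptor accessory protein that also acts in synapse formation, was at 198 CPM in gated NCKO nuclei against 47.2 CPM in the others, and at 256 CPM against 51.9 CPM in F/F. Glis3, a zinc finger factor, was at 291 CPM against 41.9 CPM in NCKO and 211 CPM against 48.3 CPM in F/F. Chrm2, the M2 muscarinic acetylcholine receptor, was at 265 CPM against 64.1 CPM in NCKO and 326 CPM against 84.5 CPM in F/F. These 4 genes were 3.85 to 6.96 times higher in the gated nuclei, and all 20 leading genes 2.40 times or more in both libraries.

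Several of the leading genes encode cell surface proteins. Sdk1, a sidekick adhesion molecule known for matching synaptic partners in the retina, was at 1566 CPM in gated NCKO nuclei and 1430 CPM in gated F/F nuclei, against 432 and 352 CPM in the others. Ptprt, a receptor tyrosine phosphatase, was at 2202 and 1823 CPM, against 857 and 598 CPM. Cdh10, a cadherin, was at 1226 and 1069 CPM, against 485 and 443 CPM. Signalling genes in the set were Adcy2, an adenylyl cyclase, at 413 CPM in NCKO and 299 CPM in F/F, and Ppp1r14c, an inhibitor of protein phosphatase 1, at 386 and 377 CPM. Runx2, a factor best known from bone, was at 207 CPM in NCKO and 168 CPM in F/F, against 48.8 and 57.7 CPM in the others. Angpt1, a ligand of the Tie2 receptor, was at 182 and 139 CPM, and rested on 61 NCKO and 16 F/F nuclei.

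A pair of other upper-layer populations was gated for comparison. The Rorb Inhba gate (a UMI of Inhba and of Rorb, among its conditions) held 278 NCKO and 177 F/F nuclei, and the Met Lhx2 gate (at least 2 of Met, Lhx2, Cav1, Fn1 and Fst and no Inhba, among its conditions) held 223 and 121 nuclei. All 20 leading genes were above the Met Lhx2 gate in both libraries, with counting intervals of the ratio above 1, and 14 of 20 were above the Rorb Inhba gate. The 20 were picked for being high in these same nuclei over all others, among them both gates. These counts are therefore a description, and no share over all genes measured is set beside them. Sdk1 was 3.71 times the Rorb Inhba level in NCKO (3.38 to 4.07) and 3.59 times in F/F (3.17 to 4.07). Kif26b, Arhgap28, Mlip, Ccbe1, Ptprk and Rtl4 were the 6 without such a difference, and Ptprk, a receptor tyrosine phosphatase, was at 4059 CPM in gated NCKO nuclei against 4466 CPM in the Rorb Inhba gate.

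**Figure D2:**
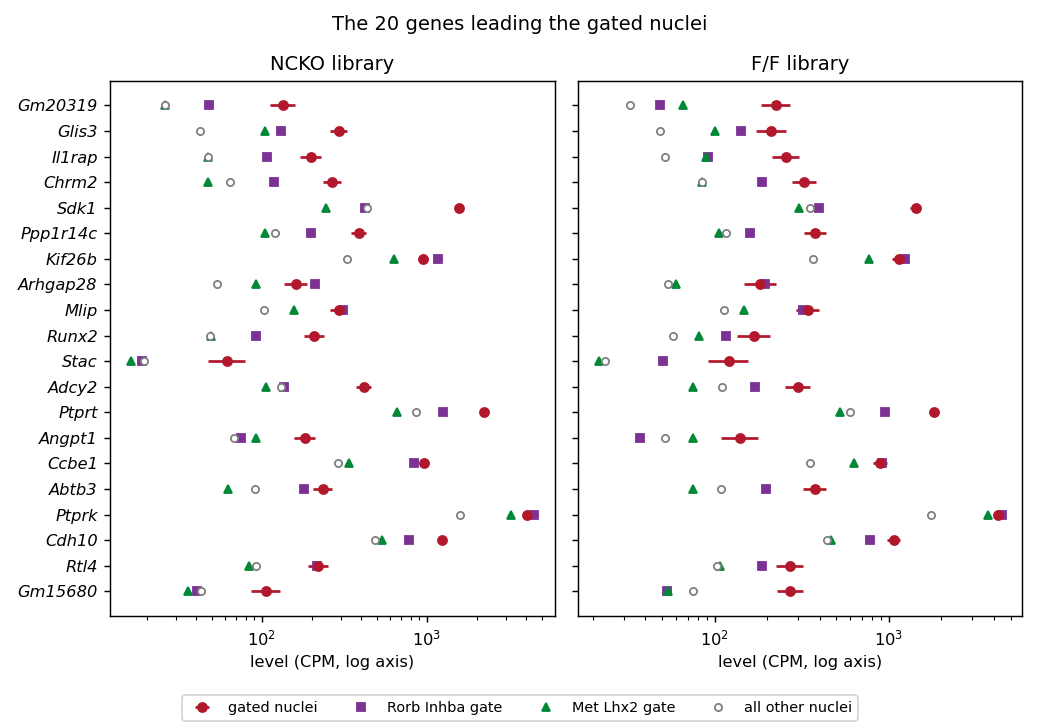
Level (CPM, log axis) of the 20 leading genes in gated nuclei (red circles, bars are exact Poisson 95% intervals), the Rorb Inhba gate (squares), the Met Lhx2 gate (triangles) and all other nuclei (open circles), for the NCKO library on the left and the F/F library on the right. Sdk1 was at 1566 and 1430 CPM in the gated nuclei and at 423 and 398 CPM in the Rorb Inhba gate.

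The genes named by the study did not stand apart in the gated nuclei. Men1 had 13 UMIs in gated NCKO nuclei, 13.3 CPM (exact Poisson 95% interval 7.10 to 22.8), and 6 UMIs in gated F/F nuclei, 12.3 CPM (4.51 to 26.8). The ratio of 1.09, with an interval of 0.385 to 3.48, neither bears out nor refutes the label, and 3' end counts give no check where the deletion lies elsewhere in the gene. Epha4, a receptor tyrosine kinase for ephrins that acts in axon guidance (chr1:77367185-77515088, minus strand, GRCm38), had 188 UMIs in NCKO, 193 CPM, and 111 UMIs in F/F, 227 CPM. The ratio was 0.849 (0.668 to 1.08), a difference not detectable at this depth. Thinned to 2000 UMIs per nucleus, Epha4 was found in 32.2% of gated NCKO nuclei and 34.1% of gated F/F nuclei. The log2 ratio was -0.23 in the gated nuclei, -0.29 in the Rorb Inhba gate, -0.65 in the Met Lhx2 gate and -0.66 in all nuclei outside the gate.

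Differences between the libraries are given as the log2 ratio of (CPM + 5) in NCKO over (CPM + 5) in F/F. Over 4770 genes with at least 50 UMIs, outside the gate genes, 343 were more than 1.5-fold higher in NCKO, 7.19%, and 272 were more than 1.5-fold lower, 5.7%. The median was 0.02. Counts of list members past the fold are to be read beside these shares. The genes named next are the 12 highest and the 12 lowest among those with at least 100 UMIs.

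Several of the lowest genes in NCKO were noncoding RNAs near neuronal transcription factors. 2610307P16Rik (chr13:28460034-28885620, minus strand), which lies 63298 bp from Sox4, had 47 UMIs in gated NCKO nuclei, 48.2 CPM (35.4 to 64.1), and 178 UMIs in gated F/F nuclei, 365 CPM (313 to 422). The log2 ratio was -2.80, and the CPM ratio 0.132 (0.0938 to 0.183). At 2000 UMIs per nucleus it was found in 6.32% of NCKO and 43.5% of F/F nuclei. A330102I10Rik, 60685 bp from Sox4, was at 40.0 CPM in NCKO and 141 CPM in F/F (-1.70), and Gm40841, also on chromosome 13, at 98.5 and 297 CPM (-1.54). Sox4 itself, a SoxC factor of newborn neurons, was at 140 CPM in NCKO and 164 CPM in F/F, with a ratio interval of 0.641 to 1.14.

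Around Pou3f3 the same direction was seen. Pantr1 (chr1:42590782-42694842, minus strand) lies 925 bp from Pou3f3. It had 44 UMIs in gated NCKO nuclei, 45.2 CPM (32.8 to 60.6), and 128 UMIs in gated F/F nuclei, 262 CPM (219 to 312), a log2 ratio of -2.41. Gm28175, 391355 bp away, was at 40.0 CPM in NCKO and 186 CPM in F/F (-2.09). Gm29260, 756207 bp away, had 3 UMIs in NCKO and 75 in F/F, a CPM ratio of 0.0200 (0.00404 to 0.0609). Of the 7 genes on the list of Sox4, Sox11 and Pou3f3 locus RNAs, 5 were past 1.5-fold lower, where 5.7% of all genes measured were, and 0 were higher, with a median of -2.09. That list was drawn up knowing earlier results of these data, so its direction is no independent evidence. The median of the same genes was -2.00 in the Rorb Inhba gate and -2.38 in the Met Lhx2 gate, so the locus RNAs were low in NCKO across the upper-layer gates.

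Mir99ahg was another long noncoding RNA lower in NCKO, with 274 UMIs in gated NCKO nuclei, 281 CPM (249 to 317), and 451 UMIs in gated F/F nuclei, 924 CPM (841 to 1013). Its log2 ratio was -1.70, and at 2000 UMIs it was found in 35.6% of NCKO and 77.6% of F/F nuclei. In the other gates the log2 ratio was -1.40 and -1.59, and in all nuclei outside the gate it was -1.05. The gene (chr16:77236317-77773427, plus strand, GRCm38) spans the hairpins of 3 microRNAs. Their 5' mature sequences (RefSeq, GRCm38.p6) are shown because they are what the locus is known for, with the seed, bases 2 to 8, in capitals:
mmu-miR-99a-5p: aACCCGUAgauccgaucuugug
mmu-let-7c-5p: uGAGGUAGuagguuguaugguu
mmu-miR-125b-5p: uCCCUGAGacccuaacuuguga
The 3 seeds differ from one another. They lie at chr16:77598940-77598961, chr16:77599672-77599693 and chr16:77646279-77646300 on the plus strand. The counts are of the host RNA, and the microRNAs themselves were not measured. The let-7 family and miR-125 are known regulators of developmental timing. In the list of timing genes with Igf2bp and Lin28b members, 2 of 5 measured genes were past 1.5-fold lower and 0 higher, where 5.7% and 7.19% of all genes measured were. The 2 were Mir99ahg and Igf2bp2, an RNA-binding protein of growth regulation, at 48.2 CPM in NCKO and 77.8 CPM in F/F.

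Upper-layer transcription factors were lower in NCKO in 5 of 11 measured genes, higher in 1, with a median of -0.38, where 5.7% of all genes measured were lower and 7.19% higher. The list's median was -0.46 in the Rorb Inhba gate and -0.58 in the Met Lhx2 gate. These medians include list members that are conditions of those gates, Rorb among them. Cux2, a homeobox factor of upper-layer dendrites and spines, was at 170 CPM in gated NCKO nuclei (145 to 198) and 397 CPM in gated F/F nuclei (343 to 457), a log2 ratio of -1.20. It was found in 17.2% of NCKO and 38.8% of F/F nuclei at 2000 UMIs. Cux1 was at 203 CPM in NCKO and 402 CPM in F/F (-0.97). Gm16599, annotated as antisense to Cux1, was at 99.5 and 324 CPM (-1.65), and without strand the reads of this pair cannot be told apart. Pou3f3 was at 34.9 CPM in NCKO and 79.9 CPM in F/F (-1.09), and Pou3f2 at 63.6 and 131 CPM (-0.99). Both are POU factors known to act in upper-layer neuron production and migration. Lmo4, a LIM-only cofactor, was at 175 CPM in NCKO and 311 CPM in F/F (-0.81). In all nuclei outside the gate, Cux2, Cux1, Pou3f3 and Pou3f2 had log2 ratios of -0.73, -0.64, -0.65 and -0.60. Lmo4 was at 104 CPM in NCKO and 107 CPM in F/F there. When nuclei were thinned to 2000 UMIs and gated again, which left 115 NCKO and 58 F/F nuclei, the log2 ratios of Cux2, Pou3f2 and Lmo4 were -0.38, -0.44 and -0.26, no longer past the fold.

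Other upper-layer factors were nearer to each other. Mef2c was at 1675 CPM in NCKO and 1831 CPM in F/F (-0.13). Rorb was at 831 CPM in NCKO and 742 CPM in F/F (0.16, ratio interval 0.989 to 1.27). Its log2 ratio was -0.86 in the Rorb Inhba gate and -0.41 in the Met Lhx2 gate, a difference that was not tested. A Rorb UMI is a condition of the Rorb Inhba gate, so the value there is a description. Bhlhe22, a basic helix-loop-helix factor, was the 1 gene past the fold upward, at 47.2 CPM in NCKO and 28.7 CPM in F/F, with an interval that included 1 (0.889 to 3.24) and a log2 ratio of 0.19 with 2 or more gate genes. Among 12 nuclear factor I and late neuronal factors, 2 were past the fold lower, Nfia at 147 CPM in NCKO and 309 CPM in F/F (-1.05) and Zbtb20 at 90.3 and 172 CPM (-0.89, and -0.26 after thinning and gating again), and 0 higher. Over all genes measured, 5.7% were lower and 7.19% higher. In all nuclei outside the gate, Nfia and Zbtb20 had log2 ratios of -0.69 and -0.78. Of 6 deep-layer factors measured, 2 were lower, Nr4a2 and Zfpm2, and 0 higher, with a median of -0.05. Neither kept the fold throughout, with Nr4a2 at -0.44 with 2 or more gate genes and Zfpm2 at -0.21 after thinning.

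**Figure D3:**
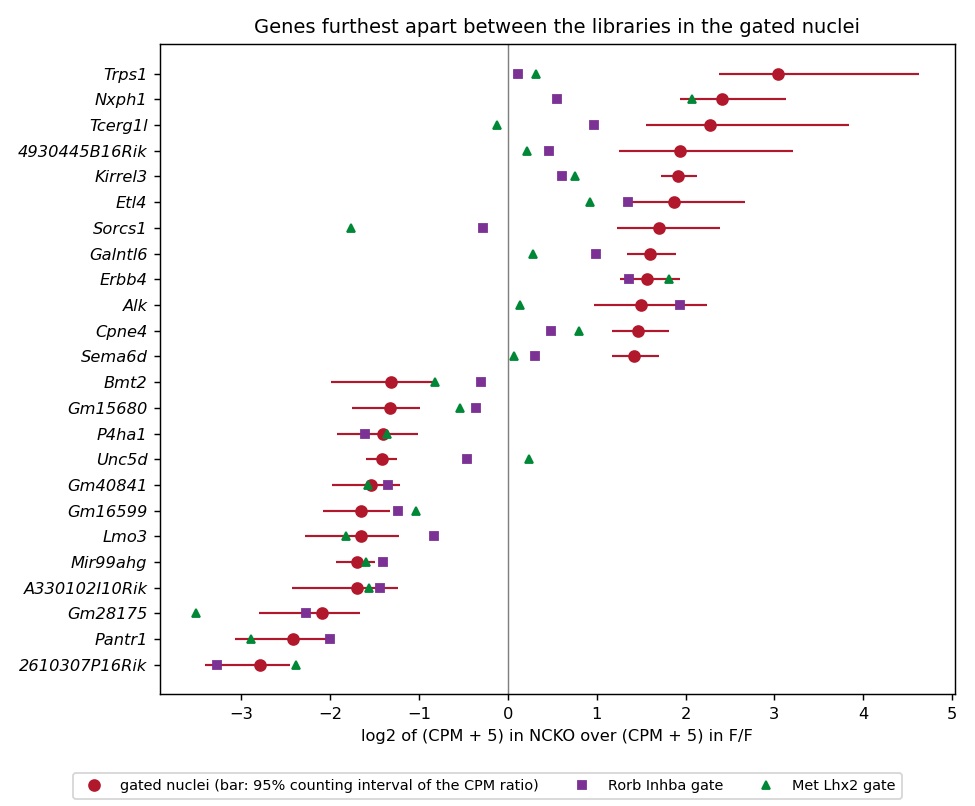
Log2 ratio of (CPM + 5) in NCKO over (CPM + 5) in F/F for the 12 highest and 12 lowest genes in the gated nuclei (red circles, bars are exact 95% counting intervals of the CPM ratio), beside the Rorb Inhba gate (squares) and the Met Lhx2 gate (triangles). Pantr1 and 2610307P16Rik lay at -2.00 or lower in all 3 gates, while Sorcs1 was at 1.70 in the gated nuclei and at -0.28 and -1.76 in the other gates.

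Genes of glycolysis and the low-oxygen response, which are known targets of hypoxia-inducible factors, were below 0 in all 8 of the 24 listed genes that passed the UMI minimum. Of these, 5 were past 1.5-fold lower and 0 higher, with a median of -0.97, where 5.7% of all genes measured were lower and 7.19% higher. The other 16 had too few UMIs, and the 24 genes together summed to 743 CPM in NCKO and 1391 CPM in F/F (ratio 0.534, 0.480 to 0.594). Gpi1, the glycolytic glucose-6-phosphate isomerase, was at 32.8 CPM in gated NCKO nuclei and 123 CPM in gated F/F nuclei (-1.76). Pdk1, the kinase that restrains pyruvate entry into mitochondria, was at 19.5 and 65.6 CPM (-1.53). P4ha1, a collagen prolyl hydroxylase subunit, was at 72.9 and 201 CPM (-1.40), and Vegfa, the vascular growth factor, at 28.7 and 73.7 CPM (-1.22). Hk1, hexokinase 1, was at 49.3 CPM in NCKO and 84.0 CPM in F/F (-0.71, and -0.35 with 2 or more gate genes). The 3 that did not pass the fold were Pfkp, Pkm and Slc2a3, at -0.33, -0.28 and -0.54. The list's median was -0.62 in the Rorb Inhba gate and -0.73 in the Met Lhx2 gate. In all nuclei outside the gate, Gpi1, Pdk1, P4ha1 and Vegfa had log2 ratios of -1.59, -1.02, -1.45 and -1.27.

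The hypoxia response element has the core ACGTG. This core was sought on both strands (as ACGTG or CACGT) in windows of 250 bases before to 50 after each RefSeq gene start. Of the listed genes, 23 had a window, and the core was present for 17 of them, 73.9%, against 21.8% of all 27025 genes with a window. Listed genes had more starts each, and counted by window the core was in 19 of 36, 52.8%, against 19.6% of all 32851 windows. Among the measured members with a window it was present in 4 of 7 genes and 4 of 11 windows. The 2 genes below had among the lowest ratios and a single start each, and are shown with the core in capitals (RefSeq, GRCm38.p6, each 5′ to 3′ on its gene's strand). P4ha1 has 1 match, on the other strand, and Gpi1 has none. The first window is chr10:59323046-59323345 on the plus strand and the second chr7:34230287-34230586 on the minus strand.
P4ha1: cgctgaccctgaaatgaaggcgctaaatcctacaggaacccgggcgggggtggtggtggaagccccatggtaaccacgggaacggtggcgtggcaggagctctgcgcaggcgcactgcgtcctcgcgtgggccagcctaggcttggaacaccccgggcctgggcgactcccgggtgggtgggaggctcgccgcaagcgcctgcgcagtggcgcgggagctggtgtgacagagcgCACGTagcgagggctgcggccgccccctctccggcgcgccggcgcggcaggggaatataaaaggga
Gpi1: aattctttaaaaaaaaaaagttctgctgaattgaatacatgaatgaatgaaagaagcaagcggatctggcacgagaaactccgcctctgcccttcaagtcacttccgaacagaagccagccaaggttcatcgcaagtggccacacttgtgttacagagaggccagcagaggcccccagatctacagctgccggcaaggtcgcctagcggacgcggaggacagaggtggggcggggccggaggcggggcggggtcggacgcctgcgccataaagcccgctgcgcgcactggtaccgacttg
A match is a description of these letters and not a bound site, and no match in this window says nothing of sites elsewhere.

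Adhesion and guidance genes were on both sides. Kirrel3, an immunoglobulin-family adhesion molecule of synapses (chr9:34485894-35036716, plus strand), had 1808 UMIs in gated NCKO nuclei, 1856 CPM (1771 to 1943), and 239 UMIs in gated F/F nuclei, 490 CPM (429 to 556). The log2 ratio was 1.91, against 0.61 in the Rorb Inhba gate and 0.76 in the Met Lhx2 gate. At 2000 UMIs it was found in 70.7% of NCKO nuclei and 30.6% of F/F nuclei, so it was higher both in the number of nuclei and in the sum. In F/F, 64.0% of its UMIs lay in 5 nuclei, against 17.2% in NCKO. Cpne4, a calcium-dependent phospholipid-binding copine, was at 546 CPM in NCKO (501 to 594) and 195 CPM in F/F (157 to 238), a log2 ratio of 1.46. It was found in 48.3% of gated NCKO and 21.2% of gated F/F nuclei at 2000 UMIs. GABAergic nuclei, which had median depths of 3014 UMIs in NCKO and 3385 UMIs in F/F before thinning, had a Cpne4 UMI in 7.84% and 5.47% at the same depth.

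**Figure D4:**
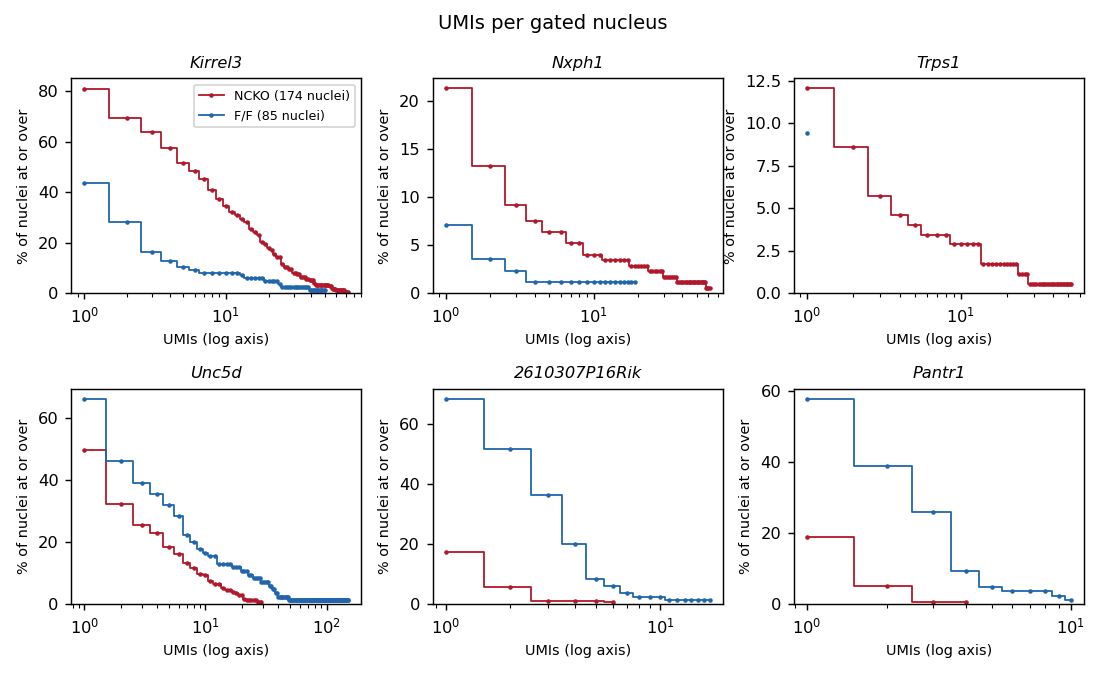
Percent of gated nuclei (y axis) with at least the number of UMIs on the x axis (log axis), for 6 genes, in the NCKO library (red, 174 nuclei) and the F/F library (blue, 85 nuclei). A Kirrel3 UMI was found in 81.0% of NCKO and 43.5% of F/F nuclei, a 2610307P16Rik UMI in 17.2% and 68.2%, and the Trps1 UMIs of NCKO lay mostly in a few nuclei.

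Guidance ligands and receptors had genes past the fold on both sides, where 7.19% of all genes measured were higher and 5.7% lower. Sema6d, a transmembrane semaphorin, was at 796 CPM in gated NCKO nuclei (741 to 854) and 295 CPM in gated F/F nuclei (249 to 347), a log2 ratio of 1.42. In the other gates its log2 ratio was 0.31 and 0.07. Sema3a, a secreted repellent, was at 84.2 CPM in NCKO and 49.2 CPM in F/F (0.72, and 0.20 without the 5% of nuclei highest in it), while Sema4d and Sema4g were lower (-0.74 and -0.67), so that 2 of 13 semaphorin, plexin and neuropilin genes were past the fold higher and 2 lower. Unc5d, a netrin and Flrt receptor known from migrating upper-layer neurons (chr8:28646717-29219636, minus strand), was at 473 CPM in NCKO (431 to 518) and 1270 CPM in F/F (1172 to 1374), a log2 ratio of -1.42. The other 9 Slit, Robo, netrin, Dcc and Unc5 genes did not pass the fold. At 2000 UMIs Unc5d was found in 35.1% of NCKO and 49.4% of F/F nuclei. The single highest nucleus held 29 of the 461 UMIs in NCKO and 151 of the 620 in F/F, and without the 5% of nuclei highest in it the log2 ratio was -1.33. After thinning and gating again it was -0.16.

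Among Eph receptors, 2 of 7 were past the fold higher and 0 lower, where 7.19% and 5.7% of all genes measured were. The 2 were Ephb1 at 118 CPM in NCKO and 63.5 CPM in F/F (0.84) and Epha7 at 444 and 293 CPM (0.59). Epha7 lay just over the fold of 0.58 on the log2 scale, and lost it under 8 of 15 alternatives, with 0.33 when the gate left out Dkk2 and Cbln2. Without nuclei of high doublet score Ephb1 was at 0.36. Epha3 was at 856 CPM in NCKO and 1108 CPM in F/F (-0.37). Of 3 ephrins measured, Efna5, a ligand of EphA receptors, was at 108 CPM in NCKO and 217 CPM in F/F (-0.98, interval 0.375 to 0.656), and Efnb2 and Efnb3 did not pass the fold. The 5 nuclei highest in Efna5 held 52.4% of its UMIs in NCKO and 64.2% in F/F, and with 2 or more gate genes its log2 ratio was -0.31.

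The Sorcs sorting receptors of the Vps10 family, which carry neurotrophin receptors and other cargo, were higher in NCKO, but rested on few F/F nuclei. Sorcs1, Sorcs2 and Sorcs3 had UMIs in 9, 2 and 8 gated F/F nuclei. Sorcs1 was at 211 CPM in gated NCKO nuclei (184 to 242) and 61.5 CPM in gated F/F nuclei (41.5 to 87.7), a log2 ratio of 1.70. It was opposite in the Rorb Inhba gate, at 576 CPM in NCKO and 699 CPM in F/F, and in the Met Lhx2 gate, at 174 and 600 CPM. Sorcs2 had 50 UMIs in NCKO and 3 UMIs in F/F, a CPM ratio of 8.35 (2.70 to 41.9). Its log2 ratio was 2.34, and 0.64 with 2 or more gate genes. Sorcs3 was at 92.4 CPM in NCKO and 51.2 CPM in F/F (0.79, and 0.21 without nuclei holding Gad1, Eomes or Reln). These were the 3 of 6 measured neurotrophin receptor and ligand genes past the fold higher, with 0 lower, where 7.19% and 5.7% of all genes measured were. The neurotrophin-3 receptor Ntrk3 was at 399 CPM in NCKO and 514 CPM in F/F (-0.36), and Ntrk2 at 748 and 656 CPM (0.19). Thyroid hormone genes were examined because Tshr is a gate gene. Of 6 measured, 2 were past the fold higher and 0 lower, among them the receptor Thrb at 103 CPM in NCKO and 47.1 CPM in F/F (1.05, and 0.47 after thinning). Thra was at 309 and 311 CPM.

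Of the contactins and contactin-associated proteins, 4 of 10 measured genes were past the fold higher in NCKO and 1 lower, where 7.19% and 5.7% of all genes measured were, with a median of 0.21, 5 above 0 and 5 below. Cntnap2, known for clustering potassium channels along axons, was at 1103 CPM in gated NCKO nuclei and 541 CPM in gated F/F nuclei (1.02), and Cntnap4 at 425 and 223 CPM (0.91). Cntnap5b was at 173 CPM in NCKO and 92.2 CPM in F/F (0.88, and 0.28 with 4 or more gate genes), and Cntnap5a at 452 and 268 CPM (0.74). Cntn4 was lower (-0.88), but 90.8% of its F/F UMIs lay in 5 nuclei. Without the 5% of nuclei highest in it, its log2 ratio was 0.50, higher in NCKO. Of 16 cadherins and protocadherins, 4 were higher (Pcdh11x, Cdh13, Pcdh10 and Cdh4) and 1 lower. Cdh13, a cadherin without a transmembrane part, was at 1806 CPM in NCKO and 1075 CPM in F/F (0.75, and 0.48 after thinning), and Pcdh9, the lower one, at 1788 and 3446 CPM (-0.94, and -0.52 with 2 or more gate genes). Pcdh11x had 63 UMIs in NCKO and 8 in F/F, 64.7 and 16.4 CPM (1.70).

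Among 25 other synaptic adhesion genes, 3 were past the fold higher and 2 lower, where 7.19% and 5.7% of all genes measured were. Their median was -0.02. Lrrc4c, the netrin-G ligand, was at 3180 CPM in NCKO and 1481 CPM in F/F (1.10, interval 1.98 to 2.33). The noncoding 4930445B16Rik, which lies within Lrrc4c on the opposite strand, was at 101 CPM in NCKO and 22.5 CPM in F/F (1.94, and 0.27 after thinning). Without strand its reads cannot be told apart from those of Lrrc4c. Il1rapl2 was at 509 and 244 CPM (1.05), but 8 F/F nuclei held all of its UMIs there and with 4 or more gate genes the ratio was -0.80, and Lrrtm3 was at 278 and 160 CPM (0.78, and 0.16 after thinning). Flrt3, a ligand of Unc5 receptors, was at 286 CPM in NCKO and 485 CPM in F/F (-0.75), and Il1rapl1 at 469 and 783 CPM (-0.73). After thinning Flrt3 was at -0.52 and Il1rapl1 at -0.042. The partners of the gate gene Cbln2 (neurexins and delta glutamate receptors) had 0 of 5 genes past the fold, with Grid1 at 392 CPM in NCKO and 283 CPM in F/F (0.46).

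Transmitter receptors and channels had few genes past the fold, where 7.19% of all genes measured were higher and 5.7% lower. In the list of 19 glutamate receptors and transporters, 2 were past the fold higher and 2 lower, with a median of -0.05. Slc17a6, the vesicular glutamate transporter of young and subcortical neurons, was at 16.4 CPM in NCKO (16 UMIs) and 84.0 CPM in F/F (41 UMIs), a log2 ratio of -2.05. Grik3, a kainate receptor subunit, was at 105 CPM in NCKO and 47.1 CPM in F/F (1.07, and -0.35 after thinning). Grik1 was at 152 CPM in NCKO and 268 CPM in F/F (-0.80). Its F/F UMIs lay in 14 nuclei, and without the 5% of nuclei highest in it the log2 ratio was 0.44. The 12 GABA receptor and chloride transport genes had 2 past the fold lower, Gabra3 (-0.75) and Gabrg3 (-0.62), and 0 higher. With 2 or more gate genes these were at -0.54 and -0.32. Of 16 potassium channel genes, 2 were higher (Kcnip1, at -0.31 after thinning, and Kcnh8, at 0.13 with 2 or more gate genes) and 1 lower, Dpp10, a subunit of Kv4 channels, at 1840 CPM in NCKO and 3269 CPM in F/F (-0.83). The 15 sodium and calcium channel genes and the 18 radial migration genes had 0 past the fold either way.

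**Figure D5:**
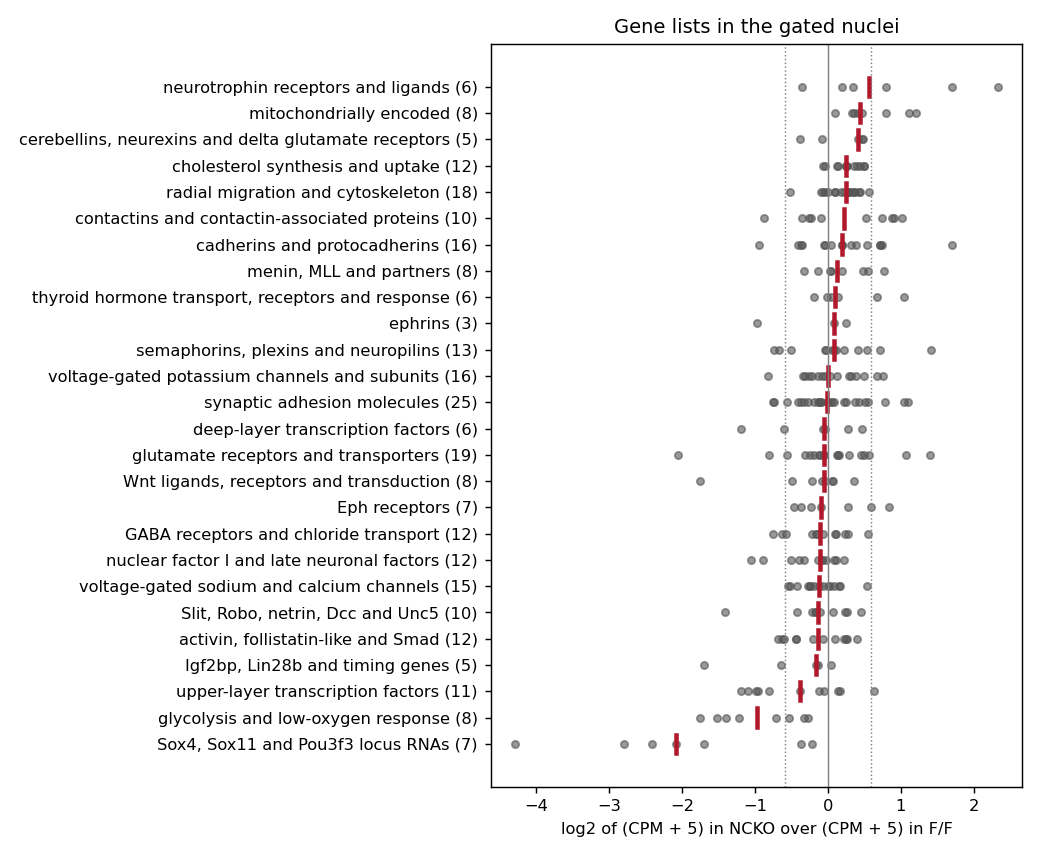
Log2 ratio of (CPM + 5) in NCKO over (CPM + 5) in F/F in the gated nuclei for the measured members (grey points) of each gene list with at least 3 of them, with the list's median (red bar) and the number measured in brackets. Dotted lines mark 1.5-fold. The medians ran between -2.09 for the Sox4, Sox11 and Pou3f3 locus RNAs and 0.57 for the neurotrophin list.

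A group of the highest genes rested on few nuclei. Trps1, a GATA-type zinc finger repressor, had the highest ratio, with 167 UMIs in gated NCKO nuclei, 171 CPM, and 8 UMIs in gated F/F nuclei, 16.4 CPM (log2 ratio 3.04). Of the NCKO UMIs, 151 lay in 10 nuclei with 3 or more each, and 0 F/F nuclei had as many. The other gated nuclei had 17.7 CPM in NCKO and 16.4 CPM in F/F. Those 10 nuclei also had Nrp2 at 411 CPM against 52.0 CPM in the other gated NCKO nuclei, Slit3 at 780 against 90.7 CPM, and Alcam at 1219 against 187 CPM. Nxph1, a secreted neurexin ligand prominent in interneurons, was at 315 CPM in NCKO and 55.3 CPM in F/F (2.41), with 67.1% and 96.3% of its UMIs in 5 nuclei. Without nuclei of high doublet score its log2 ratio was 1.81, and with 2 or more gate genes it was -0.16.

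Erbb4, the neuregulin receptor, was at 543 CPM in gated NCKO nuclei and 180 CPM in gated F/F nuclei (1.56), with 60.5% and 85.2% of its UMIs in 5 nuclei. Without nuclei that held a UMI of Gad1, Eomes or Reln, which left 146 NCKO and 74 F/F nuclei, its log2 ratio was -0.60. Galntl6, a glycosyltransferase-like gene, was at 821 CPM in NCKO and 268 CPM in F/F (1.60). Its log2 ratio was 0.71 without those nuclei and 0.77 without high doublet scores. After thinning and gating again Trps1, Erbb4 and Galntl6 were at 0.011, 0.064 and 0.45. The genes Tcerg1l, Kirrel3, Sorcs1, Alk, Cpne4 and Sema6d, 6 of the 12 highest, were past 1.5-fold under all 15 alternatives tried. Alternatives that changed only the UMI minimum leave a gene's ratio as it was. Tcerg1l was at 98.5 CPM in NCKO and 16.4 CPM in F/F (2.28), and was found in 49 NCKO and 5 F/F nuclei. Alk, a receptor tyrosine kinase, was at 159 and 53.3 CPM (1.49). Etl4 was at 185 and 47.1 CPM (1.86, and 0.31 with 2 or more gate genes).

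Of the 12 lowest genes, 11 were past 1.5-fold under all 15 alternatives, Unc5d being the exception. Those that changed only the UMI minimum could not move a ratio here either. Besides the noncoding RNAs, P4ha1 and Unc5d, they were Lmo3, a LIM-only cofactor, at 51.3 CPM in NCKO and 172 CPM in F/F (-1.65), Bmt2, a sensor of S-adenosylmethionine upstream of the growth kinase mTORC1, at 47.2 and 125 CPM (-1.32), and Gm15680, at 106 and 272 CPM (-1.33). Gm15680 overlaps Cdh8 on the same strand, so strand does not tell their reads apart. Cdh8 was at 1200 CPM in NCKO and 1555 CPM in F/F, and Gm15680 was itself among the 20 leading genes.

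A split by Dkk2 and Cbln2, both gate genes, is a description. The 12 genes each way were picked from the sum of these same nuclei, so their direction in both classes is no independent evidence. All 12 highest genes were higher in NCKO both in the nuclei with Dkk2 or Cbln2 (116 NCKO, 33 F/F) and in those with neither (58 NCKO, 52 F/F), and 9 of 12 were past 1.5-fold in both. The ratio interval included 1 for Etl4 with Dkk2 or Cbln2 (0.879 to 2.51). It also did for Alk (0.821 to 2.81) and 4930445B16Rik (0.821 to 4.40) with neither. With Dkk2 or Cbln2, 4930445B16Rik had 1 UMI in F/F. Of the 12 lowest, 11 were lower and past 1.5-fold in both. Kirrel3 was at 1824 CPM in NCKO and 800 CPM in F/F with Dkk2 or Cbln2 (log2 ratio 1.18), and at 1918 and 296 CPM with neither (2.67). Unc5d was at 471 and 746 CPM with Dkk2 or Cbln2 (-0.66) and at 477 and 1597 CPM with neither (-1.73). Lmo3 was the exception, at 60.2 CPM in NCKO and 48.0 CPM in F/F with Dkk2 or Cbln2 (0.30), and at 33.6 and 250 CPM with neither (-2.72). Cux2 was lower in both classes, at 148 and 346 CPM (-1.20) and at 214 and 429 CPM (-0.99).

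Genes whose ratio lay furthest from the other upper-layer gates were compared side by side, without a test. Besides Sorcs1, Sema6d and Trps1, Dpyd, the pyrimidine-degrading enzyme, was 1.32 in the gated nuclei against 0.46 in the Rorb Inhba gate and -0.30 in the Met Lhx2 gate, and 0.50 with 4 or more gate genes. Npy, a neuropeptide, was 0.27 against -1.26 and -0.92, and -0.59 with 2 or more gate genes. On the low side, besides Unc5d, stood Grik1 and Alcam, an immunoglobulin-family adhesion molecule at 262 CPM in NCKO and 424 CPM in F/F (-0.69 against 0.64 and 0.53). Alcam was at 0.14 with 2 or more gate genes and -0.12 with a UMI of Tshr or Ntf3 required. Rit2 was -1.05 against -0.22 and 0.41, Etv6 -0.77 against -0.23 and 1.13, with -0.28 after thinning. Sox2ot was -0.17 against 0.32 and 1.88, and lay between -1.62 after thinning and 1.80 with 4 or more gate genes.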

How the data were processed

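Single-nucleus RNA-seq of cortex from mouse embryos was analysed from 1 library per genotype label (10x Genomics 3' version 3 chemistry, per the labels' protocols). The authors deposited raw UMI counts for every gene in every barcode, without normalization, and the file headers name Cell Ranger 6.1.0. The submitters' processing notes name the mouse build mm10 and Seurat, without saying how Seurat was used. Whether counting used strand is not stated in these sources. The NCKO library had 10750 barcodes and 50115162 UMIs, and the F/F library 6477 barcodes and 30116311 UMIs, of which 19 and 10 barcodes had under 500 genes.

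The gated nuclei and the gene lists were chosen with earlier results of these data known, so no list is independent evidence. UMIs were summed over the gated nuclei of each library and given as CPM. Levels carry exact Poisson, ratios exact conditional binomial and shares exact Clopper-Pearson 95% intervals. PCR and sequencing depth beyond the UMIs, and variation between animals, are in none of them. Gene ratios used a pseudocount of 5 CPM, which draws ratios of low genes towards 0. Genes were measured with at least 50 UMIs over both libraries. Named genes are Men1, Epha4, the 12 highest and 12 lowest ratios among genes with at least 100 UMIs, the 20 leading genes, the 6 furthest each way from the other gates, and up to 4 members of each list with further members where a role needed them. Some genes, 1 of them a condition of both comparison gates, are not reported here. Of 33938 genes, 32241 have a position in the GENCODE vM21 annotation of GRCm38, the assembly also known as mm10. Doublets were scored by a Scrublet-type method with 2 simulated doublets per nucleus and were removed only in an alternative. In 1 alternative, nuclei were thinned to 2000 UMIs and gated again. The ratio code was tested on simulated counts. Python 3.11.15, numpy 2.4.6, scipy 1.17.1, pandas 2.3.3 and scikit-learn 1.9.0 were used.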

Additional observations from a re-analysis of the deposited data

Results flagged for a closer look

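Among the 6 genes furthest each way from the other upper-layer gates, 3 past 1.5-fold had a log2 ratio opposite in sign to both gates. The difference between gates was not tested. Genes outside that ranking also had opposite signs, among them Thrb (1.05 against -0.66 in the Rorb Inhba gate and -0.29 in the Met Lhx2 gate) and Nr4a2 (-1.20 against 1.07 and 0.29). Sorcs1 was at 1.70 in the gated nuclei, against -0.28 in the Rorb Inhba gate and -1.76 in the Met Lhx2 gate, with 206 UMIs in NCKO and 30 UMIs in F/F, of which 86.7% lay in 5 F/F nuclei. Grik1 was at -0.80, against 0.69 and 1.80, with 90.8% of its F/F UMIs in 5 nuclei, and was at 0.44 without the 5% of nuclei highest in it. Alcam was at -0.69, against 0.64 and 0.53, and the 10 gated NCKO nuclei with 3 or more Trps1 UMIs had it at 1219 CPM against 187 CPM in the other gated NCKO nuclei. With 2 or more gate genes Alcam was at 0.14, no longer opposite to the other gates.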

How the results depend on the processing

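No paired analysis was possible because each label has 1 library. Of 1335 values (89 genes past 1.5-fold, each under 15 alternatives), 1318 kept their direction, and 36 genes stayed past the fold in all. Part of this was fixed in advance. Alternatives that change only the UMI minimum leave each gene's ratio as it was, and a changed pseudocount cannot turn its sign. The scaling by the median ratio shifted log2 ratios by 0.0168. The count of genes higher in NCKO, 343, was 111 after thinning to 2000 UMIs (1198 genes measured), 182 with a pseudocount of 20, 123 with a minimum of 100 UMIs, 2035 with no minimum and 618 without the 5% of nuclei highest in each gene. The count of lower genes, 272, was 89, 175, 109 and 1999 under the first 4 of these. With at least 4 gate genes the share ratio was 1.66 (1.23 with 3), the upper-layer factor median -0.25 and the mitochondrial median 0.97 (0.44 with 3). The upper-layer factor median was also -0.25 with no minimum. After thinning, the medians were -0.51 for the locus RNA list, 0.62 for contactins and -0.064 for mitochondrial genes. These medians were over the members that still had 50 UMIs, so the members differ from the main ones. The first equalled the value of Sox4 itself. Pantr1, 2610307P16Rik, Gm28175, Gm29260 and A330102I10Rik were at -2.63, -2.37, -1.72, -3.75 and -1.23 after thinning. Without the 5% of nuclei highest in each gene the contactin median was 0.69. With 2 or more gate genes the log2 ratio turned for Nxph1 (-0.16), Erbb4 (-0.33), Grik1 (0.37), Alcam (0.14), Kcnip1 (-0.40) and Adarb2 (-0.083). With 4 or more it turned for Il1rapl2 (-0.80). Thinning turned Nxph1 (-0.030), Cntn4 (0.79), Grik3 (-0.35), Kcnip1 (-0.31) and Gm20319 (0.23). Erbb4 (-0.60) and Adarb2 (-1.63) turned without nuclei holding Gad1, Eomes or Reln, Cntn4 with a UMI of Tshr or Ntf3 required (0.16), and Cntn4 (0.50) and Grik1 (0.44) without the 5% of nuclei highest in each. The causes were not tested. Leaving out the highest nuclei and the Trps1 nuclei, and gating without Dkk2 and Cbln2, were alternatives chosen after seeing the data. Depth limits genes below 50 UMIs, and 3 UMIs are 3.08 CPM in NCKO and 6.15 CPM in F/F.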

Other observations

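Over all genes measured, 7.19% were past the fold higher and 5.7% lower. Cholesterol synthesis and uptake genes had 0 of 12 measured members past 1.5-fold either way, and 10 of 12 were above 0, with a median of 0.25. Sqle, the squalene epoxidase, was at 101 CPM in gated NCKO nuclei and 69.6 CPM in gated F/F nuclei (ratio interval 0.969 to 2.20). Of 8 mitochondrially encoded genes, 3 were past the fold higher (mt-Nd4, mt-Nd1 and mt-Cytb) and 0 lower, with a median of 0.44, and mt-Nd4 was at 238 CPM in NCKO and 100 CPM in F/F. With 2 or more gate genes mt-Nd1 and mt-Cytb were at 0.56 and 0.47.

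Wnt genes, examined because Dkk2 is a gate gene, had 1 of 8 measured members past the fold lower and 0 higher, where 5.7% and 7.19% of all genes measured were. That gene was the ligand Wnt5b, at 22.6 CPM in NCKO and 88.1 CPM in F/F (log2 ratio -1.76), and at -1.69 in the Rorb Inhba gate and -0.53 in the Met Lhx2 gate. In the list of activin, follistatin-like and Smad genes, 3 of 12 were lower and 0 higher. These were Fstl4 at 96.5 CPM in NCKO and 158 CPM in F/F, the receptor Tgfbr1 at 134 and 211 CPM, and the receptor Acvr1 at 151 and 231 CPM. None kept the fold throughout: Fstl4 was at -0.0009 with 2 or more gate genes, Acvr1 at -0.37 after thinning and Tgfbr1 at -0.57 without nuclei holding Gad1, Eomes or Reln. Among 8 measured genes of menin's partners and related chromatin complexes, 1 was past the fold higher, the histone demethylase Kdm6a at 80.0 CPM in NCKO and 45.1 CPM in F/F (0.76, and 0.37 with 2 or more gate genes), and 0 lower. The 7 CDK inhibitors, known targets of menin in endocrine cells, had 22 UMIs together in NCKO and 15 in F/F, and no member passed the UMI minimum. Of 14 activity-regulated genes, 1 was measured, Homer1 at 134 CPM in NCKO and 125 CPM in F/F. The stress list had 2 measured genes, Hspa8 at 60.6 and 49.2 CPM and Hsp90aa1 at 55.4 and 55.3 CPM, with 0 past the fold.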
